A study of Rattus norvegicus with 16 samples.

Results

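The transcripts described here are those of 10 peptide hormones and releasing factors of the neuroendocrine hypothalamus: Avp, Oxt, Crh, Trh, Sst, Ghrh, Gnrh1, Kiss1, Tac3 and Adcyap1. They are a list of gene symbols, drawn up with earlier results of these data known but with no threshold on a measured value, and make up 10 of the 16514 symbols in the tables of both tissues together. Each had 1 locus in each table, and Tac3 was found under its older symbol Tac2. Messenger RNA was sequenced from hypothalamus and hippocampus of male Sprague Dawley rats whose treatment was either none (control) or fructose for 6 weeks; the labels give no age, dose or route. They list 4 samples for each tissue and group. The hypothalamus table has columns for 4 control and 3 fructose libraries and the hippocampus table for 4 of each, so that fructose replicate 4 of hypothalamus was not analysed here. Nothing in the labels says that the samples came from separate rats, and the p-values therefore reflect sample-to-sample spread that may be technical. Values are FPKM, fragments scaled by transcript length and by the total mapped, which can be compared between genes because they are scaled by length. With FPKM and no counts, sequencing depth is not known.

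Vasopressin (Avp) and oxytocin (Oxt) are made by large neurons of the supraoptic and paraventricular nuclei that send axons to the posterior pituitary. The releasing and inhibiting factors Crh, Trh, Sst, Ghrh and Gnrh1 reach the anterior pituitary through the portal blood, where they set the output of corticotropin, thyrotropin, growth hormone and the gonadotropins. Kiss1 (kisspeptin) and Tac3 (neurokinin B) act on the neurons that release Gnrh1, and Adcyap1 (the peptide PACAP) modulates many neurons and pituitary cells.

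Avp and Oxt are neighbours on chromosome 3 and are read from opposite strands. Their promoters are shown because these genes gave the highest peptide levels and differed more between libraries than most genes. The sequences are the 250 bases before each RefSeq start in the GRCr8 assembly, which is not the build of the expression tables, written 5′ to 3′ on the strand of the gene (Avp chr3:138248523-138248772, minus strand; Oxt chr3:138235504-138235753, plus strand). Capitals mark matches to motifs that were picked after the sequences had been seen.
Avp: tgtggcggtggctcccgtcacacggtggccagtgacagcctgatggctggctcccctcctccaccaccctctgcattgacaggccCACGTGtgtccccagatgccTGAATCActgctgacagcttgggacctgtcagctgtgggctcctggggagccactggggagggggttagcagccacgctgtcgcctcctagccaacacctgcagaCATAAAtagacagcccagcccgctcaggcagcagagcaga
Oxt: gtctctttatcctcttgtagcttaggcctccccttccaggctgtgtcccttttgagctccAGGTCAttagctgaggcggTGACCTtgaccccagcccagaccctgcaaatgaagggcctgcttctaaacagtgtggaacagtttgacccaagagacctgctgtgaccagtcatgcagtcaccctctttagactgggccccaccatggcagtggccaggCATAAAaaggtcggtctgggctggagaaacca

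The hexamer CATAAA, which resembles a TATA box, lies 40 to 35 bases before the start of Avp and 32 to 27 bases before that of Oxt. It also lies 31 to 26 bases before the start of Kiss1, and it occurs on either strand in 11.4% of the 33469 rat promoters of this length. Avp also holds CACGTG, an E-box, 165 to 160 bases before the start (5.59% of promoters) and TGANTCA, the letters of an AP-1 site, 145 to 139 bases before it (6.34%). Oxt holds TGACCT, a nuclear receptor half-site, 171 to 166 bases before the start and its reverse complement AGGTCA 190 to 185 bases before it. Trh also holds TGACCT, 35 to 30 bases before its start, and 14.1% of promoters hold this motif on either strand. The motifs do not overlap one another in these promoters, and a match is a description of letters and not of a bound site.

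In control hypothalamus Avp was the highest at 2587 ± 1056 FPKM (SD, n = 4) and Oxt followed at 1780 ± 769. Avp ranked between 7 and 30 among all loci of a hypothalamus library, and Oxt between 10 and 62. Somatostatin (Sst), which inhibits growth hormone release and is also made by local interneurons, came next at 392 ± 38.8 FPKM. Tac3 stood at 157 ± 49.5, Trh at 93.5 ± 11.2 and Adcyap1 at 40.6 ± 10.4. Ghrh, the stimulator of growth hormone, stood at 26.1 ± 18.7 FPKM, Gnrh1 at 11.1 ± 5.39, Crh at 7.75 ± 0.833 and Kiss1 at 4.08 ± 1.15. In this order the control ranges of Avp and Oxt overlapped, as did those of Adcyap1 and Ghrh, of Ghrh and Gnrh1, and of Gnrh1 and Crh, while the other neighbours did not overlap. Together the 10 transcripts made up 0.618% to 1.42% of the summed FPKM of a hypothalamus library, and Avp and Oxt were 73.6% to 88.9% of that part.

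Hippocampus served as the reference tissue. The tables were normalized separately, so levels set across them are given without a test. There 4 of the 10 transcripts had a mean of at least 1 FPKM. Sst was at 233 ± 17.9 FPKM in control hippocampus (n = 4) and Tac3 at 30.1 ± 3.69, which puts hypothalamus 1.68-fold and 5.20-fold above hippocampus. Adcyap1 was at 2.25 ± 0.946 FPKM and Trh at 1.10 ± 0.339, and hypothalamus stood 18.0-fold and 84.7-fold above these levels. Crh had a mean of 0.825 FPKM over the 8 hippocampus libraries, Gnrh1 of 0.414 and Ghrh of 0.144. Avp and Oxt were at or below 0.305 FPKM in 7 of 8 hippocampus libraries, and Kiss1 was listed at 0 in all 8. A value listed at 0 can be a failed estimate and is not read as absence.

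**Figure D1:**
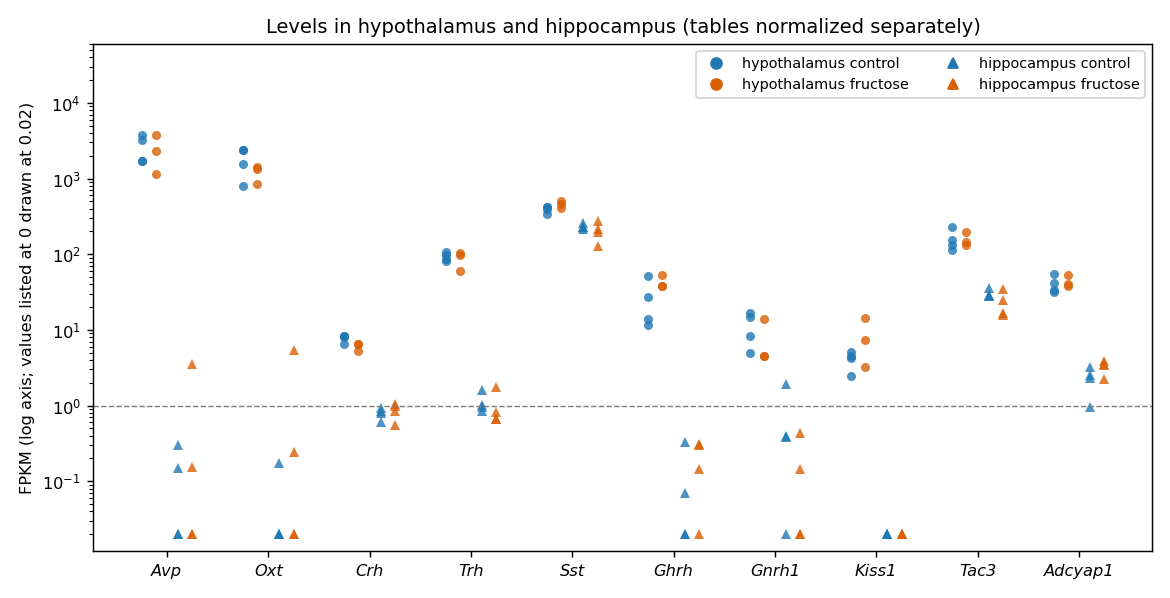
FPKM (log axis) of the 10 peptide transcripts, 1 point per library, circles for hypothalamus and triangles for hippocampus, blue for control and orange for fructose; values listed at 0 are drawn at 0.02 and the dashed line marks 1 FPKM. Sst and Tac3 stay above 15 FPKM in each hippocampus library, and fructose replicate 1 holds the highest hippocampal Avp (3.53) and Oxt (5.46).

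The libraries differed in ways that touch these results. In each tissue both replicate 1 libraries differed from the rest across loci (r = 0.98 with each other and 0.88 to 0.909 with the other libraries in hypothalamus). Of 8 defining hypothalamic markers, 7 were measured in hypothalamus, summing to 1701 to 3276 FPKM in control and 1256 to 2217 in fructose libraries, while Npy was listed at 0 in 6 of the 7 libraries and at 0.0928 in the other. Transcripts of meningeal cells, the fibroblasts of the membranes that cover the brain, summed to 199 to 362 FPKM in control and 47.0 to 206 in fructose hypothalamus, and all 8 had negative log2 fold changes (median -1.49). Of these 5 had an unadjusted p under 0.05, against 3.14% of all loci, and 3 had groups that did not overlap, against 3.33%. The marker list was chosen with earlier results of these data known, so these counts are a description and not independent support. In hippocampus all 8 were positive (median 1.41, from 0.57 to 1.79), with sums of 44.6 to 444 FPKM in control and 182 to 674 in fructose libraries. Pituitary markers summed to 77.1 to 842 FPKM in control and 49.7 to 864 in fructose libraries. Cga (mean 358 FPKM over the 7 libraries) and Tshb (47.7) were the highest of them. All 8 were above 0 in at least 1 library, but Prl reached at most 0.343 FPKM and Fshb 0.930. Thalamic markers summed to 26.7 to 40.1 FPKM in control and 25.1 to 63.4 in fructose libraries. Fructose replicate 2 held the lowest meningeal and pituitary sums and the highest thalamic sum. Of the pituitary markers, Cga (19.9 FPKM), Tshb (0.946) and Pitx1 (0.199) were at their lowest in this library, and Fshb was listed at 0. Gh1 (1.70), Lhb (9.05), Pou1f1 (17.6) and Prl (0.340) lay inside the range of the other libraries. The part of these markers in the peptide values was not tested. In a tissue sample, fewer cells that make a peptide and less RNA in each of them cannot be told apart.

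The main comparison asked whether these transcripts differed between fructose and control libraries in the hypothalamus. With limma on log2(FPKM + 1), 0 of 10 passed an adjusted p of 0.05, where 0.0087% of the 11498 loci tested passed (1 locus, Slc39a12, a zinc transporter). None reached an unadjusted p under 0.05, against 3.14% of loci, and the control and fructose values overlapped for all 10, where 3.33% of loci had groups that did not overlap. Log2 fold changes were positive for 5 transcripts and negative for 5, with a median of -0.05 beside 0.006 over all loci. Each adjusted p was 1, and the 95% intervals of all 10 log2 fold changes included 0. Without both replicate 1 libraries 2 of the 10 had an unadjusted p under 0.05 (Gnrh1 and Kiss1), where 9.28% of loci did. With the replicate number as a block 1 did (Ghrh, 6.6% of loci), and without fructose replicate 2 again 0 (1.27%). With libraries weighted by their quality (array weights) 3 did (Trh, Gnrh1 and Kiss1, 18.3%). These weights came from how closely each library followed its group means in these data, not from a measure of RNA or reads. The count at an adjusted p of 0.05 was 0 in each of 17 alternative fits. The lowest adjusted p in those fits was 0.118, for Kiss1.

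**Figure D2:**
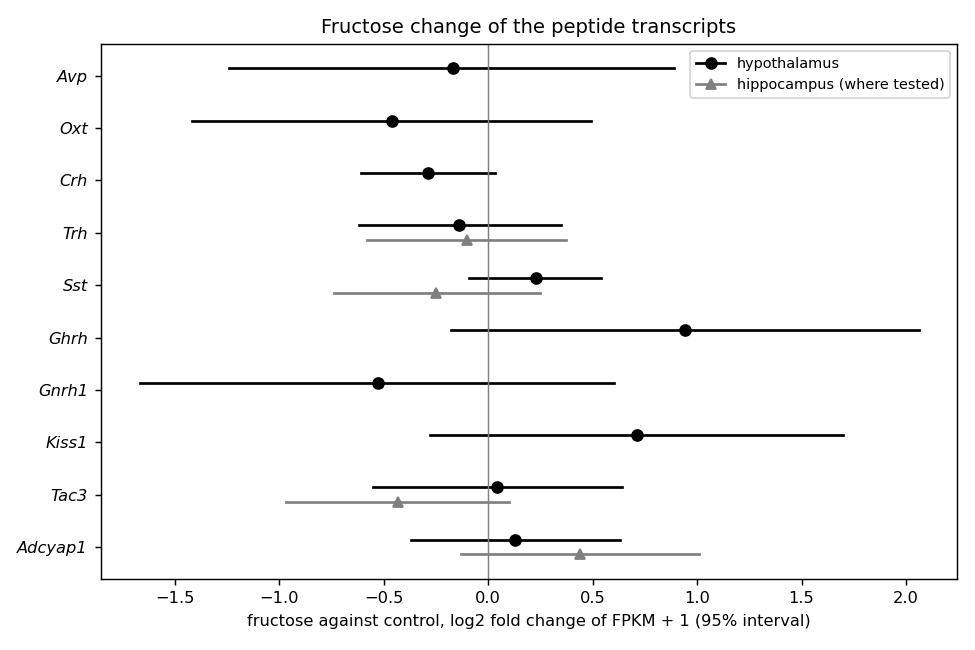
Log2 fold change of FPKM + 1, fructose against control, with its 95% interval from limma, for the 10 transcripts in hypothalamus (black circles) and the 4 tested in hippocampus (grey triangles). All intervals include 0; that of Crh ends at 0.03 and that of Ghrh begins at -0.18.

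Avp, the antidiuretic hormone, was at 3191, 1698, 1692 and 3765 FPKM in control replicates 1 to 4 and at 2291, 1159 and 3736 FPKM in fructose replicates 1 to 3. Control replicates 1 and 4 and fructose replicate 3 were high, and fructose replicate 2 was the lowest of the 7, so each group spanned much of the same range. The log2 fold change was -0.17 ± 0.46 (SE; 95% interval -1.24 to 0.89, limma unadjusted p = 0.714). It was 0.27 without fructose replicate 2 and 0.04 without control replicate 4, so its sign depends on single libraries. With the replicate number as a block it was also 0.04. Control replicate 4 has no fructose partner, so the block fit leaves that library out of the estimate.

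Oxt, the hormone of milk ejection and labour, was at 2366, 789, 1557 and 2410 FPKM in control and at 1441, 857 and 1326 FPKM in fructose libraries. All 3 fructose values lay between the lowest control value, that of replicate 2, and the next one. The means were 1780 ± 769 (n = 4) and 1208 ± 310 (n = 3), and the log2 fold change was -0.46 ± 0.41 (95% interval -1.42 to 0.49, limma unadjusted p = 0.292). Without control replicate 2 it was -0.81, with an unadjusted p of 0.0225 and an adjusted p of 1 in limma. It was smaller in other fits: -0.23 without fructose replicate 2, -0.28 without control replicate 1 and -0.26 after quantile normalization. With control replicate 4 left out, and so also with the replicate block, it was -0.28.

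Avp exceeded Oxt in all 7 hypothalamus libraries. The log2 ratio of Avp to Oxt was 0.43, 1.11, 0.12 and 0.64 in control and 0.67, 0.44 and 1.49 in fructose libraries. The highest ratio belonged to fructose replicate 3 and the lowest to control replicate 3. Means were 0.57 ± 0.41 (SD, n = 4) and 0.87 ± 0.56 (n = 3), a difference of 0.29 (two-sided exact permutation p = 0.4). With 4 against 3 libraries this test cannot give a p below 0.0571, so it could not have reached 0.05. Without fructose replicate 3 the difference was -0.02.

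**Figure D3:**
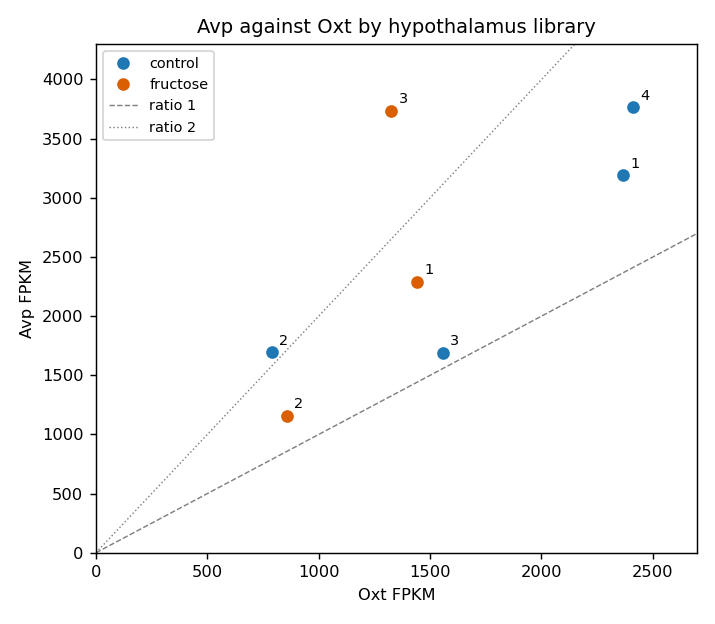
Avp FPKM against Oxt FPKM in the 7 hypothalamus libraries, blue for control and orange for fructose, numbered by replicate, with lines at Avp to Oxt ratios of 1 and 2. All points lie above the line of ratio 1, and fructose replicate 3 has the highest ratio, 2.82.

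Among the releasing factors, Crh, which drives the corticotropin axis, varied little between libraries. It was at 8.07, 6.50, 8.20 and 8.21 FPKM in control and at 6.58, 6.59 and 5.33 FPKM in fructose libraries. The 3 fructose values lay below control replicates 1, 3 and 4, and control replicate 2 fell among them. The log2 fold change was -0.29 ± 0.14 (95% interval -0.61 to 0.03, limma unadjusted p = 0.0733), and without control replicate 2 it was -0.36 with an unadjusted p of 0.0421 and an adjusted p of 1. The residual SD of Crh stood at percentile 17.9 of all tested loci.

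Trh, which drives thyrotropin release, was at 81.6, 87.7, 97.5 and 107 FPKM in control and at 97.4, 60.0 and 103 FPKM in fructose libraries. Fructose replicate 2 was the lowest of the 7 and the other fructose values lay inside the control range. The log2 fold change was -0.14 ± 0.21 (95% interval -0.62 to 0.35, limma unadjusted p = 0.532). It was 0.11 without fructose replicate 2 and -0.48 with libraries weighted by their quality (limma unadjusted p = 0.028, adjusted p = 0.22), and it was also over 1.5 times as large without both replicate 1 libraries (-0.30), without fructose replicate 1 (-0.24) and without fructose replicate 3 (-0.28).

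The opposing regulators of growth hormone, Ghrh and Sst, both had positive estimates. Sst was at 421, 336, 395 and 415 FPKM in control and at 457, 412 and 507 FPKM in fructose libraries, with fructose replicate 2 below control replicates 1 and 4. Its log2 fold change was 0.23 ± 0.13 (95% interval -0.09 to 0.54, limma unadjusted p = 0.131). Ghrh was at 11.5, 27.0, 52.2 and 13.9 FPKM in control and at 38.3, 38.5 and 53.7 FPKM in fructose libraries. Control replicate 3 lay at the fructose level and the other 3 controls below it. The Ghrh log2 fold change was 0.94 ± 0.48 (95% interval -0.18 to 2.06, limma unadjusted p = 0.0895). Without control replicate 3 it was 1.34 (unadjusted p = 0.00535, adjusted p = 1, limma), and with libraries weighted by their quality it was 0.43. The highest Ghrh value of the 7 was 4.68 times the lowest, and for Sst this ratio was 1.51.

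Gnrh1, the releasing factor of the gonadotropins, was at 8.33, 5.02, 14.7 and 16.6 FPKM in control and at 14.1, 4.52 and 4.48 FPKM in fructose libraries. High and low values occurred in both groups. The log2 fold change was -0.53 ± 0.49 (95% interval -1.67 to 0.60, limma unadjusted p = 0.307), and it was -1.10 without both replicate 1 libraries (limma unadjusted p = 0.0445, adjusted p = 0.52) and -1.02 without fructose replicate 1 alone. Without fructose replicate 2 or fructose replicate 3 it was -0.29, without control replicate 4 and with the replicate block -0.32, and without control replicate 2 -0.83.

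Kiss1 was at 5.14, 4.51, 4.24 and 2.45 FPKM in control and at 3.19, 14.5 and 7.24 FPKM in fructose libraries. Fructose replicates 2 and 3 lay above all controls and fructose replicate 1 lay among them. The log2 fold change was 0.71 ± 0.42 (95% interval -0.28 to 1.70, limma unadjusted p = 0.137). With libraries weighted by their quality it was 1.39 (limma unadjusted p = 0.00151, adjusted p = 0.118). Without both replicate 1 libraries it was 1.29 (limma unadjusted p = 0.00586, adjusted p = 0.48). It was 1.19 without fructose replicate 1 (limma unadjusted p = 0.00912, adjusted p = 0.805) and 0.24 without fructose replicate 2, the library whose marker sums stood at the extremes given above.

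Tac3, which is made together with kisspeptin in arcuate neurons, was at 115, 131, 154 and 227 FPKM in control and at 198, 145 and 132 FPKM in fructose libraries. The fructose values lay inside the control range, and the log2 fold change was 0.04 ± 0.25 (95% interval -0.55 to 0.64, limma unadjusted p = 0.87). Adcyap1 was at 42.0, 54.6, 34.1 and 31.5 FPKM in control and at 52.9, 40.6 and 38.2 FPKM in fructose libraries, again inside the control range. Its log2 fold change was 0.13 ± 0.21 (95% interval -0.37 to 0.63, limma unadjusted p = 0.565). Leaving out both replicate 1 libraries moved these estimates to -0.26 for Tac3 and 0.02 for Adcyap1.

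**Figure D4:**
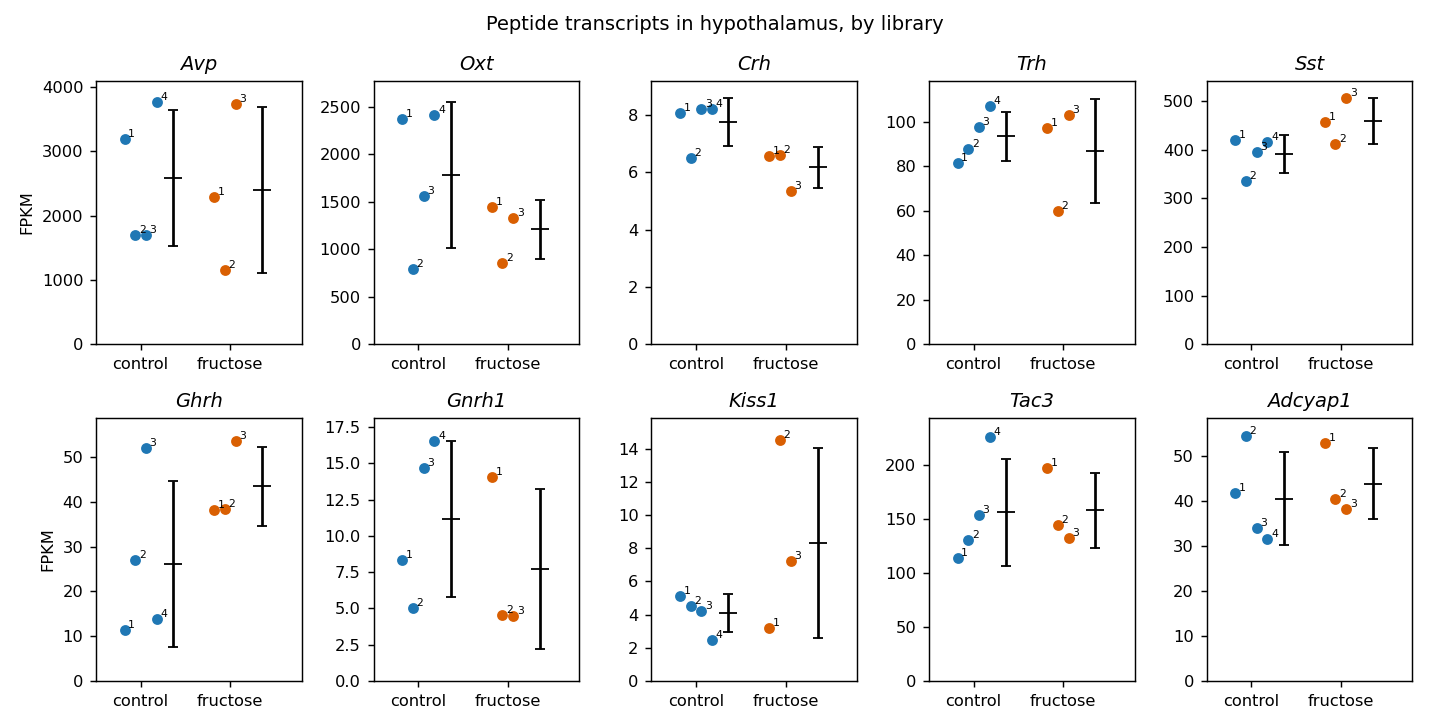
FPKM of each transcript in the 4 control (blue) and 3 fructose (orange) hypothalamus libraries, numbered by replicate, with the group mean and SD as bars; each axis starts at 0. The groups overlap in every panel, and for Crh the overlap comes from control replicate 2 (6.50 FPKM).

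The transcripts fell into those that were steady between libraries and those that were not. After the group means were removed, the residual SD of Ghrh, Gnrh1, Avp, Kiss1 and Oxt stood at percentiles 95.2, 95.3, 94.7, 93.8 and 93.3 of all tested loci. That of Crh and Sst stood at 17.9 and 18.6, and Trh, Adcyap1 and Tac3 lay between at 61.7, 64.0 and 76.4. Fructose replicate 2 had the lowest Avp and Trh and the highest Kiss1 of the 7 libraries, and control replicate 4 the highest Avp, Oxt, Crh, Trh, Gnrh1 and Tac3 with the lowest Kiss1 and Adcyap1. Around the group means, Oxt and Sst varied together (r = 0.90, 7 libraries), as did Avp and Sst (0.86), Gnrh1 and Tac3 (0.81) and Avp and Oxt (0.76). Kiss1 varied in the opposite direction to Trh (-0.82), Gnrh1 (-0.75) and Tac3 (-0.71). These correlations were picked as the strongest of all pairs of the peptides, describe 7 libraries and carry no test. Both replicate 1 libraries are among the 7. The part of the differing pituitary, meningeal and thalamic sums in these correlations was not tested.

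**Figure D5:**
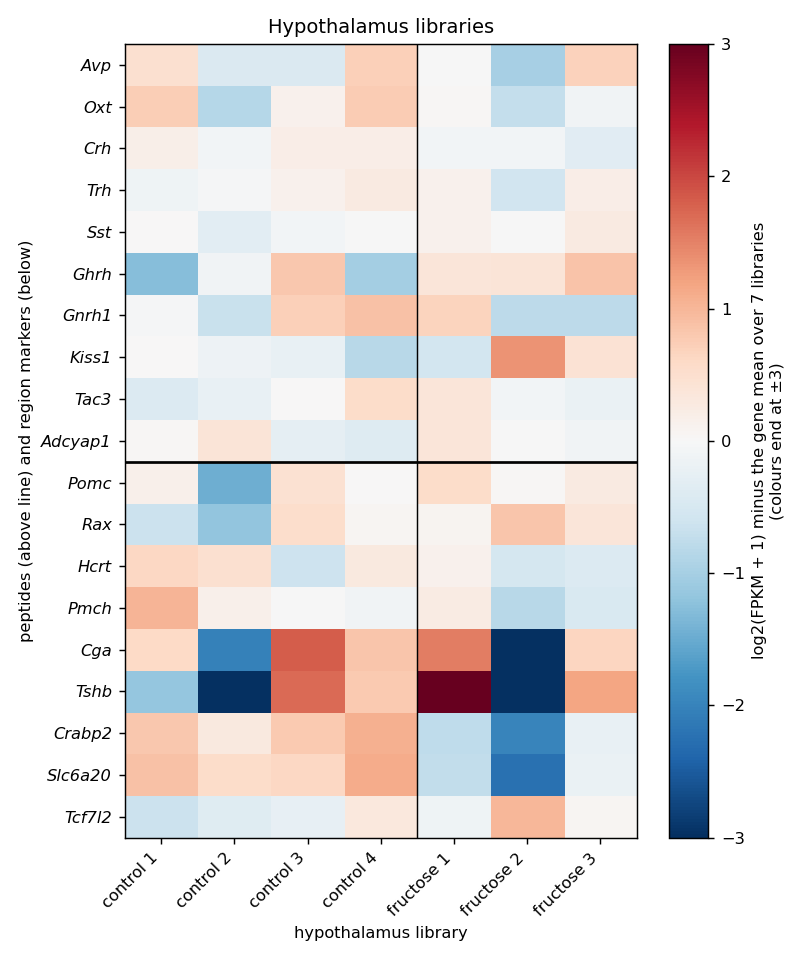
Colour map of log2(FPKM + 1) minus the gene's mean over the 7 hypothalamus libraries, for the 10 peptides (above the heavy line) and for hypothalamic, pituitary, meningeal and thalamic markers (below it); the vertical line parts control from fructose libraries and colours end at ±3. Fructose replicate 2 shows low Avp and Trh, high Kiss1, low Cga, Tshb and Crabp2, and high Tcf7l2. Cga and Tshb are the only pituitary markers drawn.

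By the same measure the 3 tested loci most like each transcript over the 7 libraries had r between 0.956 and 0.995. They were taken out of 11498 loci, with placeholder symbols passed over. For Avp they were Lrrc55, Dnajc17 and Bves, for Oxt Psme1, Gtf2i and Nr2c1, and for Crh Mtpap, Chat and Clic6. For Trh they were Col9a2, Mars and Scgb1c1, for Sst Foxc1, Chst15 and G4, and for Ghrh Snx1, Wdr54 and Nle1. Gnrh1 was most like Slc37a4, Il18 and Cetn4, Kiss1 like Glul, Tef and C3, Tac3 like Zfp275, Lhx6 and C1qbp, and Adcyap1 like Sh3gl2, Pak1 and Nxph1. No peptide was among the 3 loci most like another peptide. With 3 loci taken out of 11498 over 7 libraries, high r values and this absence were both likely in advance, and nothing is concluded from them.

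Receptors and binding proteins of these peptides were measured in the same libraries. Of 21 on the list, 20 were in the hypothalamus table and 13 had a mean of at least 1 FPKM. Log2 fold changes were positive for 9 and negative for 4, with a median of 0.05, and 0 passed an adjusted p of 0.05 in limma (0.0087% of loci did). One had an unadjusted p under 0.05, against 3.14% of loci, and it was also the one whose groups did not overlap (3.33% of loci).

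That transcript was Adcyap1r1, the PAC1 receptor of the Adcyap1 peptide and the most abundant receptor of the list. It was at 73.2, 51.3, 65.8 and 66.0 FPKM in control and at 76.3, 93.5 and 83.7 FPKM in fructose libraries. Means were 64.1 ± 9.18 (n = 4) and 84.5 ± 8.66 (n = 3), with all fructose values above all control values. The log2 fold change was 0.40 ± 0.15 (95% interval 0.05 to 0.75, limma unadjusted p = 0.0312, adjusted p = 1). It lay between 0.30 and 0.56 in 17 alternative fits, where the lowest adjusted p was 0.119. Its limma unadjusted p was above 0.05 without fructose replicate 2 (0.112) or 3 (0.0686) and without control replicate 2 (0.0687) or 3 (0.0532). In hippocampus Adcyap1r1 was at 44.9 ± 8.90 and 49.1 ± 7.63 FPKM (n = 4 each), a log2 fold change of 0.13 ± 0.17. The difference between the tissues was 0.27 ± 0.24 (unadjusted p = 0.283, adjusted p = 1, limma), so the change is not shown to differ between them.

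The other tested receptors had log2 fold changes between -0.17 and 0.16 in hypothalamus. Kiss1r, the kisspeptin receptor on Gnrh1 neurons, was at 12.4 ± 3.31 FPKM in control and 13.1 ± 1.60 in fructose libraries, and Tacr3, the neurokinin B receptor, at 7.80 ± 2.20 and 7.48 ± 1.44. The somatostatin receptors Sstr1 (8.42 ± 2.03 and 9.30 ± 0.935), Sstr2 (7.95 ± 1.92 and 8.88 ± 1.57) and Sstr4 (1.72 ± 0.333 and 1.45 ± 0.314) differed by less than their SDs. The same held for the vasopressin receptor Avpr1a (3.71 ± 0.362 and 3.96 ± 1.31), the oxytocin receptor Oxtr (1.99 ± 0.381 and 2.10 ± 0.547) and the thyrotropin-releasing hormone receptor Trhr (4.29 ± 0.803 and 3.78 ± 1.45). It also held for Crhr1 (3.48 ± 0.782 and 3.42 ± 0.348), Crhr2 (3.55 ± 0.976 and 3.62 ± 0.921) and the binding protein Crhbp (3.10 ± 1.40 and 3.37 ± 1.25). Vipr2, a receptor shared by Adcyap1 and Vip, was at 2.36 ± 0.412 and 2.70 ± 0.308 FPKM. Ghrhr and Gnrhr, the receptors of pituitary target cells, stayed below 0.1 FPKM in all 7 hypothalamus libraries. The highest Kiss1r values were those of control replicates 2 and 4 and fructose replicate 2, at 15.2, 14.4 and 14.5 FPKM.

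Genes that make or accompany the peptides gave no called change (0.0087% of loci passed). Their lists hold no gene with a limma unadjusted p under 0.05 in hypothalamus, against 3.14% of loci. Over all 11498 tested loci 5927 log2 fold changes were positive. Of 10 transcription factors that specify peptide neurons, 8 had positive log2 fold changes (median 0.09), among them Isl1 at 10.7 ± 1.81 FPKM in control and 13.2 ± 2.12 in fructose libraries and Gsx1, a factor of Ghrh neurons, at 1.68 ± 0.186 and 2.40 ± 1.01. Of 6 tested genes of prohormone processing, 3 were positive and 3 negative; the proprotein convertase Pcsk2 was at 48.0 ± 9.54 and 53.6 ± 7.08 FPKM and its chaperone Scg5 at 393 ± 37.5 and 349 ± 46.8. The inhibitor Pcsk1n ranged from 4.52 to 578 FPKM among control libraries, with 2 loci in the table, and its value is uncertain. Of 5 tested peptidases 3 were positive (median 0.03), with the neprilysin Mme at 1.65 ± 0.436 and 1.49 ± 0.547 FPKM. Of 8 transmitters and peptides made in the same neurons 5 were positive (median 0.06), with Cartpt at 446 ± 141 and 520 ± 31.7 FPKM and the neuronal nitric oxide synthase Nos1 at 6.95 ± 1.14 and 8.36 ± 1.63. Of the 3 tested family relatives, Vip was at 3.36 ± 1.28 and 4.94 ± 2.28 FPKM, Tac1 at 42.1 ± 12.8 and 42.8 ± 27.2, and Ucn3 at 4.21 ± 3.90 and 2.95 ± 1.63.

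In hippocampus 4 of the peptide transcripts could be tested, and the groups overlapped for all 4. None passed an adjusted p of 0.05 (0% of 11385 loci did), none had an unadjusted p under 0.05 (0.808% of loci) and 0.668% of loci had groups that did not overlap. Sst, there a marker of inhibitory interneurons, was at 216, 258, 231 and 227 FPKM in control and at 214, 276, 196 and 128 FPKM in fructose libraries, a log2 fold change of -0.25 ± 0.22 (limma unadjusted p = 0.292). It was -0.04 without fructose replicate 4 and -0.41 without fructose replicate 2. Tac3 was at 29.0, 35.6, 28.0 and 27.9 FPKM in control and at 16.0, 25.0, 34.2 and 16.8 FPKM in fructose libraries. Fructose replicate 3 lay at the top of the control range and the other 3 fructose libraries below it. The Tac3 log2 fold change was -0.43 ± 0.23 (95% interval -0.97 to 0.10, limma unadjusted p = 0.1), and without fructose replicate 3 it was -0.64 with an unadjusted p of 0.00899 and an adjusted p of 1. Adcyap1 was at 3.22, 2.50, 0.953 and 2.35 FPKM in control and at 3.47, 3.94, 3.54 and 2.25 FPKM in fructose libraries, a log2 fold change of 0.44 ± 0.25 (limma unadjusted p = 0.116) that was 0.21 without control replicate 3 and 0.78 with libraries weighted by their quality. Trh was at 1.01, 0.853, 1.60 and 0.945 and at 0.666, 0.832, 1.76 and 0.674 FPKM, a log2 fold change of -0.10 ± 0.21.

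The fructose change was set against that of hippocampus for the same 4 transcripts, with a test of the difference over 9931 symbols. None passed an adjusted p of 0.05 (0% of symbols did) and none had an unadjusted p under 0.05 (2.31% of symbols). For Sst the hypothalamic change minus the hippocampal change was 0.47 ± 0.27 on the log2 scale (95% interval -0.11 to 1.06, limma unadjusted p = 0.106). For Tac3 it was 0.48 ± 0.36 (-0.29 to 1.24), for Adcyap1 -0.31 ± 0.34 (-1.04 to 0.42) and for Trh -0.03 ± 0.29 (-0.66 to 0.59). The Sst difference ranged from 0.27 to 0.64 over 25 alternative fits and the Tac3 difference from 0.04 to 0.68.

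Avp and Oxt stood high in a single hippocampus library, fructose replicate 1. Avp was at 3.53 FPKM there and at 0 to 0.305 in the other 7, and Oxt at 5.46 against 0 to 0.242. Pomc, the precursor of melanocortins and corticotropin, was at 15.1 FPKM in the same library and at 0.456 to 3.06 in the others. These values were 0.154%, 0.379% and 6.38% of the levels in hypothalamus fructose replicate 1. The pituitary markers Gh1 and Lhb were also highest there, at 1.10 FPKM (0 to 0.293 elsewhere) and 1.60 FPKM (0.408 to 1.44), while Cga and Tshb were listed at 0. Hcrt, at 3.04 FPKM (0.990 to 4.73) and 0.404% of the hypothalamic level, was above 6 of the other 7 libraries. Pmch, the most abundant of the hypothalamic markers, was at 0.212 FPKM (0.152 to 1.12) and 0.018% of the hypothalamic level. Where these transcripts came from was not tested. Sst, Crh, Ghrh, Gnrh1 and Adcyap1 of this library lay inside the range of the other 7, while Trh and Tac3 were its lowest values of all 8 libraries. Without this library the fructose values of Avp and Oxt in hippocampus were 0.153, 0 and 0 and 0, 0.242 and 0 FPKM in replicates 2, 3 and 4, where the highest control values were 0.305 and 0.176.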

How the data were processed

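Poly-A RNA of hypothalamus and hippocampus was sequenced on an Illumina instrument, per the labels' protocols. The authors deposited 1 table of FPKM values with a status flag per locus and library for each tissue; the submitters' processing notes name TopHat, Bowtie, TopHat2, Bowtie2, Cufflinks, Cuffdiff and the build rn5, without versions. The tables were normalized separately and each was used as deposited. Groups came from the labels. No column of per-sample values was left unmapped (0), and the design was written for up to 4 against 4 libraries, of which hypothalamus gave 4 against 3.

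Within a table, a locus was tested if its FPKM averaged 1 or more; limma 3.58.1 (R 4.3.3) was fitted to log2(FPKM + 1) (trend in the prior variance, group as the only term, Benjamini-Hochberg adjustment at 0.05 over all 11498 or 11385 loci). The difference between tissues was an interaction over 9931 symbols at their highest-mean locus. Fold changes are on the log2(FPKM + 1) scale, which understates those of low transcripts. FPKM means carry the SD, and log2 fold changes carry limma's SE. The Avp to Oxt ratio had an exact permutation test (scipy 1.17.1). The fit was tested on simulated data. Ratios of FPKM values of at most 0.3 fell in a common step for at most 16.4% of them, and so whole reads were not recovered and depth stayed unknown.

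Named are the 10 peptides, their tested receptors, up to 4 genes of each other list with the smallest unadjusted p in hypothalamus, and the 3 loci most like each peptide. Placeholder symbols were passed over when those loci were chosen. Ghrhr, Gnrhr, Npy, Lhb, Prl, Fshb, Pitx1 and Slc39a12 are named outside this rule and were chosen after their values were seen. The peptides and the 13 lists (103 entries) were chosen with earlier results of these data known. Qpct was found as RGD1562284 and Tac3 as Tac2, through RefSeq synonyms. Of the 10 peptides 7 had a promoter in the RefSeq table.

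Same-numbered control and fructose libraries deviated together from their group means (r = 0.85, 0.49 and 0.46 in hypothalamus; 0.89, 0.21, 0.48 and 0.41 in hippocampus), so the replicate number was used as a block in an alternative. What a number marks is not stated, and without replicate 1 these correlations lay between -0.23 and 0.40. In hypothalamus control replicate 4 has no fructose partner, so the block fit leaves it out of the estimate. Other alternatives changed the pseudocount, the filter, the scaling, the handling of several loci and the library weights, or left out libraries.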

Additional observations from a re-analysis of the deposited data

Results flagged for a closer look

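In 28 groups of 4 libraries the highest or lowest value was compared with the others by its gap over the group's range (Dixon's 95% critical value), and 6 stood apart. That critical value is set for about 1 in 20 groups of normally spread values. Several of these groups hold values at or near 0, and the Avp and Oxt flags in hippocampus fructose share a library. The rate is therefore not set against the 6. In control hypothalamus Crh of replicate 2 was at 6.50 FPKM and the next value at 8.07. In hippocampus fructose replicate 1 had Avp at 3.53 FPKM (next 0.153) and Oxt at 5.46 (next 0.242). Trh of fructose replicate 3 was at 1.76 FPKM (next 0.832), Tac3 of control replicate 2 at 35.6 (next 29.0) and Oxt of control replicate 1 at 0.176, with the other 3 controls listed at 0. In that last group the zeros alone set the gap equal to the range, so its flag was fixed in advance. Fructose hypothalamus, with 3 libraries, was not examined in this way. The cause of these values was not tested.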

How the results depend on the processing

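No peptide passed an adjusted p of 0.05 in any fit that was run (17 alternatives in hypothalamus, up to 18 in hippocampus and up to 25 for the difference between tissues), while the number with an unadjusted p under 0.05 in hypothalamus ranged from 0 to 3 (1 with the replicate block, 2 without both replicate 1 libraries, 3 with array weights) and that of all loci from 146 to 2099. Loci called in hypothalamus numbered 1, against 0 with a mean FPKM of at least 5, 2 with the replicate block, 2 without both replicate 1 libraries, and 0 to 2 with 1 library left out. Called loci were 0 to 1 with 1 library left out in hippocampus and for the difference, and 336 for the difference with array weights. The sign of 4 peptides and of the Avp to Oxt difference turned in some fits. Avp was 0.04 with the replicate block and -0.57 to 0.27 with 1 library left out. Tac3 was -0.26 without both replicate 1 libraries, -0.11 with array weights and -0.13 to 0.24 with 1 library left out. In the same way Trh ranged from -0.28 to 0.11, Adcyap1 from -0.01 to 0.28 and the Avp to Oxt difference from -0.02 to 0.51. For Trh the difference between tissues was 0.08 with 0.1 added to FPKM, 0.04 with the replicate block, 0.03 after quantile normalization and -0.17 to 0.21 with 1 library left out. Crh, Oxt, Sst, Ghrh, Gnrh1, Kiss1 and Adcyap1r1 kept their sign in all 17 hypothalamus alternatives. The replicate block changed no call of a peptide. With 3 or 4 libraries a group and unknown depth, only large changes could be told from the spread in the more variable peptides. The 95% interval of Ghrh reached 2.06 and that of Gnrh1 -1.67. Those of Crh (-0.61 to 0.03) and Sst (-0.09 to 0.54) were narrower.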
